A study of Homo sapiens with 12 samples.

Results

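The genes of the MYC, MAX and MXD network encode a small set of transcription factors that compete for common partners and for the same DNA sites. The members taken were MYC, MAX, MXD1, MXI1, MXD3, MXD4, MNT, MGA and MLX. They were found by name, as the rows of the expression tables in which 1 of the comma-separated gene names was a member, and all 9 were found among 61782 rows. Of these, 7 rows hold 1 name. The row of MXD1 is joined with SNRNP27, a gene of the splicing machinery, and that of MXD3 with RAB24, a small GTPase. In both cases the genes overlap on the same strand. The values of these 2 joined rows cannot be assigned to 1 gene.

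RNA was precipitated with an antibody against AGO2, the Argonaute protein that holds a microRNA on its target mRNA, or with unspecific IgG as mock, to find the mRNAs that AGO2 holds when miR-143 is present. The cells were K562, a human erythroleukemia line, in the form K562-C/EBPα-ER with an inducible C/EBPα fusion that all groups carry, and they were populations stably transduced with pLV-miR-143 or pLV-control. The 12 samples formed 4 groups of 3, named control_IgG, control_AGO, miR143_IgG and miR143_AGO. The labels give no induction of C/EBPα and no time point. The deposited values are the authors' average FPKM (fragments per kilobase of transcript, relative to the mapped fragments) per group. Every gene thus had 1 value per group without a spread, and no difference could be tested or checked against replicates. The study describes the precipitation as independent experiments.

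MYC binds DNA as a heterodimer with MAX at the E-box, with the core CACGTG, and activates genes of growth, ribosome production and nucleotide synthesis. The MXD proteins (MXD1, MXI1, MXD3 and MXD4) and MNT bind the same sites with MAX and bring the SIN3 corepressor with its histone deacetylases, and MGA pairs with MAX within a Polycomb complex. MLX is a MAX-like partner of MLXIP (MondoA) and MLXIPL (ChREBP), which respond to glucose, and also pairs with some of the MXD proteins and MNT. In hematopoietic cells, high MYC goes with proliferation, and a shift from MYC to MXD partners of MAX accompanies differentiation.

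The sequence that sets a possible link to miR-143 is the seed, bases 2 to 8 of the mature microRNA. It is shown in capitals in the RefSeq sequence (GRCh38.p14, chr5:149428978-149428998, plus strand), followed by the stretches of member 3′ UTRs that pair with it, in capitals with the bases before them (21 bases each, 5′ to 3′ in the sense of the mRNA, GENCODE 29, GRCh38). The letter strings searched on the mRNA strand were TCATCTCA, called an 8mer, TCATCTC, called 7mer-m8, and CATCTCA, called 7mer-A1, and a stretch that matched the 8mer was counted once. The coordinates are those of the capitals, which lie in the 3′ UTR of the transcripts MXD1-201, MXD4-201 and MLX-203.
hsa-miR-143-3p: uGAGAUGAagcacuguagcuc
MXD1, 7mer-A1, chr2:69938567-69938573, plus strand: ataagcaatgtccaCATCTCA
MXD4, 7mer-m8, chr4:2249601-2249607, minus strand: cctcgggggcttacTCATCTC
MXD4, 7mer-m8, chr4:2248354-2248360, minus strand: aggggcttctgctcTCATCTC
MLX, 7mer-A1, chr17:42572170-42572176, plus strand: aagggctttctggcCATCTCA
MLX, 7mer-A1, chr17:42572915-42572921, plus strand: tagccagtgcaagaCATCTCA

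Sites were thus found in 3 of the 9 members, MXD1 with 1, MXD4 with 2 and MLX with 2, and none of the 5 sites was an 8mer. Among the 7130 genes with a 3′ UTR that were compared, 1764 (24.7%) held a site of 1 of the 3 kinds. The 3 members were the same when the shortest annotated 3′ UTR of each gene was searched, where 8.85% of the genes held a site. For these 3 members the search could hardly differ. Their longest and shortest 3′ UTRs had 4661 and 4654 bases (MXD1), 3112 in both (MXD4) and 1636 in both (MLX). Other genes were cut, as MAX from 2601 to 14 bases, so that the 2 shares of genes are no check of the 3 members. MYC, MAX, MXI1, MXD3, MNT and MGA had none in the longest 3′ UTR. A match of letters is a description and does not show binding.

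The network was also searched for the seeds of microRNAs that blood cells are known to carry, since AGO2 holds all of them. miR-24-3p had the most members with a site, 7 of 9 (MYC, MAX, MXI1, MXD4, MNT, MGA and MLX, against 34.1% of genes). With the shortest 3′ UTR, 3 members had one (MXD4, MNT and MLX, against 13.1% of genes). For miR-34-5p there were 4 members (MXD4 with 3 sites, MNT, MGA and MLX, against 24.2% of genes). Members with a site of let-7-5p (MXD1, MNT and MGA), of miR-17-5p (MXD1, MXI1 and MGA) and of miR-19-3p (MXD1, MXD3 and MGA) were 3 each, against 18%, 31.1% and 21.9% of genes. With the shortest 3′ UTR these 3 families had MXD1 alone, and miR-34-5p had 2 members (MXD4 and MLX). miR-145-5p, the genomic neighbour of miR-143, had 2 members (MXD4 and MGA, against 22.5% of genes), and miR-92-3p had MXD1 (against 20% of genes). With the shortest 3′ UTR they had 1 each, MXD4 and MXD1. Each family was searched as the reverse complement of seed bases 2 to 8, with or without an A after it, and as that of bases 2 to 7 followed by an A. The 3′ UTRs of most members are long. Those of MGA (5801 bases), MXD1 (4661), MXD4 (3112), MNT (2841), MAX (2601), MXI1 (2378), MLX (1636) and MXD3 (1619) exceed the median of 1334 bases over genes, and that of MYC (476) does not. A longer 3′ UTR holds more matches of any 7 letters.

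The longest matches, 8mers with the A opposite the first base of the microRNA, are shown for these families with the microRNAs they pair with (RefSeq, GRCh38.p14, seed in capitals), because they mark which antagonists of MYC carry which seed match. The capitals of the sites (GENCODE 29, GRCh38, 3′ UTR, 21 bases, sense strand) are the 8 matched letters.
hsa-let-7a-5p: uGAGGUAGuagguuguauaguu
MXD1, chr2:69939086-69939093, plus strand: acatttttttttcCTACCTCA
hsa-miR-17-5p: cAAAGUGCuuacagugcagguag
MGA, chr15:41770625-41770632, plus strand: caaatagggtgatGCACTTTA
hsa-miR-92a-3p: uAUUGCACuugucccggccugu
MXD1, chr2:69942340-69942347, plus strand: tagagggtggggtGTGCAATA
hsa-miR-34a-5p: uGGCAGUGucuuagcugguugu
MNT, chr17:2386214-2386221, minus strand: aaccaaacccagcCACTGCCA
MGA, chr15:41771214-41771221, plus strand: agatattcagactCACTGCCA
hsa-miR-24-3p: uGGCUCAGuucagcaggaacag
MXI1, chr10:110285858-110285865, plus strand: agcaggccaaggtCTGAGCCA
MNT, chr17:2386744-2386751, minus strand: gggtgcaaagactCTGAGCCA

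The 4 groups differed in what they held. MIR143, the transferred gene, was listed at 0 in both precipitates of control cells and reached 44781 FPKM in the mock and 118393 FPKM in AGO2 of miR-143 cells, as the labels say. Coding rows held 7.88% and 8.37% of the FPKM sum in control_IgG and miR143_IgG, and 42% and 37.1% in control_AGO and miR143_AGO. Fragment numbers are unknown. The low edge of a group, the 10th lowest product above 0 of FPKM and transcript length over genes with 1 transcript, falls as depth rises. Relative to miR143_AGO it was 12.9 times as high in control_IgG, the shallowest group, but 1.64 times in miR143_IgG and 1.09 times in control_AGO. Of the 36 member values, 30 lay at least 50 times above the low edge of their group. The others were MXD1, MXI1, MXD3 and MXD4 in control_IgG, at 20.7 to 31.6 times the edge, and MNT in both IgG groups, listed at 0. Of 10 erythroid marker rows, 0 to 1 were at 0 with sums of 539 to 1097 FPKM. Of 10 granulocytic markers 6 to 9 were at 0 with sums of 7.10 to 28.0 FPKM, and of 7 lymphoid markers 5 to 7 were at 0. Erythroid markers, which define K562, were thus present, and those of the other lineages were mostly at 0. In the AGO pair 2 of 10 erythroid rows were at least 2-fold higher and 0 lower, beside 17.7% and 14.1% of all rows. LMO2 was the lowest there (-0.94 on the log2 scale). In AGO2 over mock 4 were higher and 3 lower in control cells, beside 34.5% and 36.2% of all rows. In miR-143 cells 4 were higher and 4 lower, beside 26.6% and 33.5%. Among rows of 1 name with at least 1 FPKM in both groups, LMO2 was the highest in control cells (3.45) and NFE2 the lowest (-1.99), and in miR-143 cells KLF1 (2.73) and TFRC (-1.32). Of the granulocytic rows, PRTN3 (7.86 and 13.9 FPKM, at 0 in both mocks), ITGAM and CSF3R were above 1 FPKM in the AGO groups.

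Levels are compared between genes on the FPKM scale, which is per length. MYC, the activator of the network, was the most abundant of the 9 rows in all 4 groups. It was at 159 FPKM in the mock and 147 in AGO2 of control cells, and at 98.1 FPKM in the mock and 121 in AGO2 of miR-143 cells. MYC exceeded 96.7% to 98.4% of the coding rows above 0 in each group. As deposited, both miR-143 values lay below both control values. This separation was not kept with the groups scaled to the same median, upper quartile or sum over coding rows. Under each of these scalings miR143_AGO lay above control_IgG. How many of all rows separate in such a way was not counted, here and for the genes below, so that such an order is a description only. MAX, the obligate partner of MYC and of its antagonists, was at 77.4 FPKM in the mock and 33.5 in AGO2 of control cells, and at 37.6 FPKM in the mock and 41.9 in AGO2 of miR-143 cells. One group stood apart for MAX, control_IgG, and the other values lay close together. MLX, the partner in the parallel branch, was at 17.9 FPKM in the mock and 75.9 in AGO2 of control cells, and at 22.2 FPKM in the mock and 61.5 in AGO2 of miR-143 cells. Both AGO values of MLX lay above both IgG values. The order of MAX and MLX thus differed between the precipitates. MAX exceeded MLX in both IgG groups, and MLX exceeded MAX in both AGO groups.

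The antagonists were less abundant. MXI1, an MXD protein that represses through SIN3, was at 5.02 FPKM in the mock and 1.88 in AGO2 of control cells, and at 4.27 FPKM in the mock and 5.16 in AGO2 of miR-143 cells, with control_AGO as the low group. MXD4 was at 3.59 FPKM in the mock and 7.33 in AGO2 of control cells, and at 1.96 FPKM in the mock and 8.79 in AGO2 of miR-143 cells, with both AGO values above both IgG values. MNT, the most widely expressed antagonist, was listed at 0 in both IgG groups and at 3.50 FPKM in control_AGO and 4.10 in miR143_AGO. For MNT the precipitates did not overlap, but an exact 0 in such a table can be a failed estimate.

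The joined row of MXD3, an MXD protein linked to cycling progenitors, was at 9.83 FPKM in the mock and 4.32 in AGO2 of control cells, and at 5.36 FPKM in the mock and 11.1 in AGO2 of miR-143 cells. The joined row of MXD1, which is induced in differentiating myeloid cells, was at 3.06 FPKM in the mock and 5.06 in AGO2 of control cells, and at 2.83 FPKM in the mock and 3.69 in AGO2 of miR-143 cells, the narrowest range of the antagonists. MGA, the largest protein of the network, was at 54.9 FPKM in the mock and 3.73 in AGO2 of control cells, and at 7.10 FPKM in the mock and 6.88 in AGO2 of miR-143 cells. A single group, control_IgG, set the range of MGA, and the other groups lay within 3.73 to 7.10 FPKM.

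**Figure D1:**
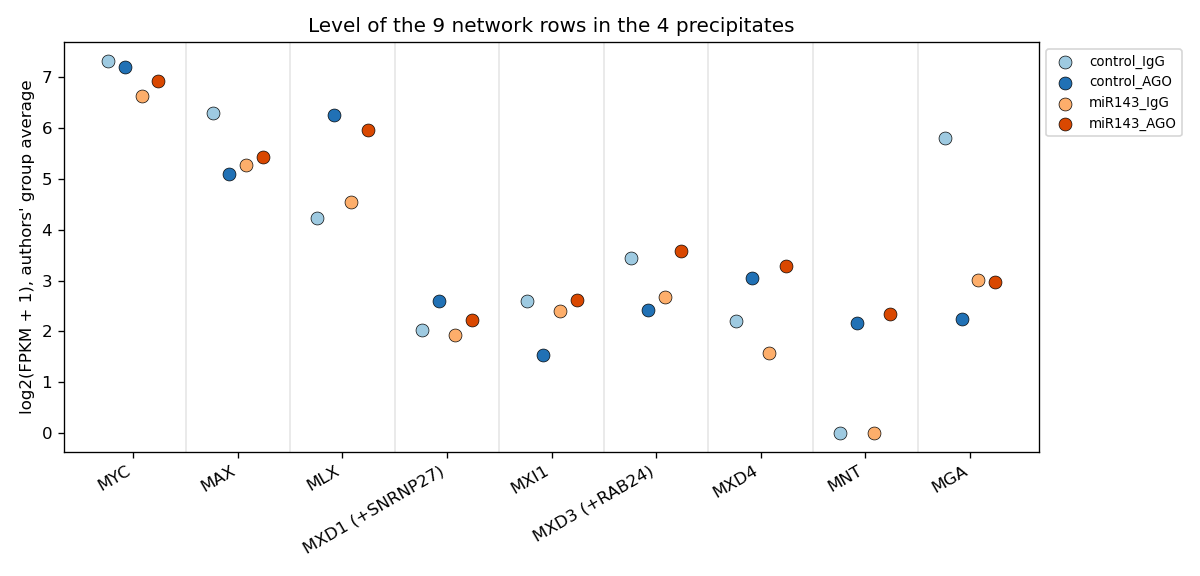
Level of the 9 rows as log2(FPKM + 1) of the authors' group average, with 1 point per group (IgG in light and AGO in dark colours, control cells in blue and miR-143 cells in orange). MYC is highest in every group, MLX and MNT are higher in both AGO groups, and MGA and MAX stand out in control_IgG.

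Ratios between groups are given as log2 of (FPKM + 1) over (FPKM + 1), which understates differences of low genes, over rows with at least 1 FPKM in 1 of the groups compared. A ratio is counted when it is at least 2-fold on this scale. In the AGO pair, miR143_AGO over control_AGO, which asks what AGO2 held more or less of with miR-143, 2 of 9 members were at least 2-fold higher and 0 lower. Of the 9798 rows compared, 17.7% were at least 2-fold higher and 14.1% lower. The 2 members were the antagonists MXD3 (log2 ratio 1.18 in the row joined with RAB24, from 4.32 to 11.1 FPKM) and MXI1 (log2 ratio 1.10, from 1.88 to 5.16 FPKM, 2.74 times). Among all rows, 12.8% had a higher ratio than MXD3 and 15.0% a higher one than MXI1. The other members lay within 2-fold, from MXD1 at -0.37 to MGA at 0.74 on the log2 scale. The median of the 9 was 0.23, beside 0.17 for all rows, and no member reached 10-fold, the threshold that the study states (0.286% of rows higher, 0.745% lower).

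The activator and its partner were close to even in the AGO pair. MYC had a log2 ratio of -0.28 (1.22 times lower in miR143_AGO) and MAX one of 0.32 (1.25 times higher). Among all rows, 31.9% had a lower ratio than MYC. The members with a miR-143-3p site had log2 ratios of -0.37 (MXD1, joined), 0.23 (MXD4) and -0.30 (MLX), all within 2-fold, and the 2 members past 2-fold, MXI1 and MXD3, had no site. With the groups scaled to the same median, upper quartile or sum over coding rows, the log2 ratio of MXI1 ranged from 0.96 to 1.22 and that of MXD3 from 1.01 to 1.30, and no member changed sign.

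The IgG pair, miR143_IgG over control_IgG, shows what differed without AGO2. Here 0 of 8 members were at least 2-fold higher and 2 were at least 2-fold lower, beside 36.2% and 26.8% of 10172 rows, and 0 reached 10-fold (5.71% of rows higher, 3.16% lower). The 2 were MGA, at a log2 ratio of -2.79 (7.74 times lower in miR143_IgG), and MAX, at -1.02 (2.06 times lower). MYC had -0.69 (1.62 times lower), MXD3 -0.77, MXD4 -0.63, MXI1 -0.19, MXD1 -0.08 and MLX 0.30. MXI1 ranged from -0.16 to 0.04 and MXD1 from -0.05 to 0.12 under the 3 scalings, and thus changed sign in some. MAX lay within 2-fold under each of them (-0.98 to -0.74), and MNT, at 0 in both groups, was not compared. MYC was thus lower in miR-143 cells in the mock as well as in AGO2, within 2-fold in both, and kept this direction under each scaling. In the IgG pair 32.4% of rows had a lower ratio than MYC. The median of the members was -0.66 and that of all rows 0.17.

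**Figure D2:**
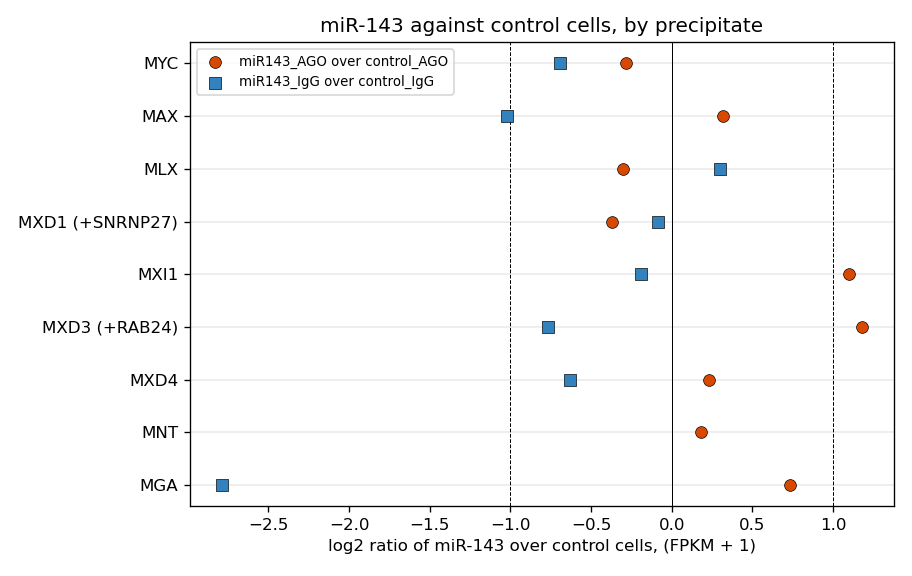
Log2 ratio, on (FPKM + 1), of miR-143 over control cells for each member in the AGO2 precipitates (circles) and in the mock precipitates (squares), with dashed lines at 2-fold. MXI1 and MXD3 lie past 2-fold in the AGO pair, MGA and MAX lie past it on the other side in the IgG pair, and MNT has no mock value.

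AGO2 over mock in the same cells compares the relative value of a row in the 2 precipitates. It does not by itself show what AGO2 held, because no input RNA is among the samples and the precipitates differed in composition. Coding rows held 7.88% and 8.37% of the FPKM sum in the mocks of control and miR-143 cells, and 42% and 37.1% in AGO2. In control cells, 2 of 9 members were at least 2-fold higher in AGO2 (MLX and MNT) and 4 were at least 2-fold lower (MAX, MXI1, MXD3 and MGA), beside 34.5% of 9919 rows higher and 36.2% lower. MLX had a log2 ratio of 2.03 (4.24 times higher), and 14.5% of rows had a higher one. MNT was listed at 0 in the mock, so that no fold is given. MXD4 was 2.04 times higher but at 0.86 on the log2 scale with the pseudocount, and MXD1 was at 0.58. MAX was at -1.19 (2.31 times lower), MXI1 at -1.06 and MXD3 at -1.02. MYC, at -0.11, was nearly even, and turned to 0.36 to 0.55 with the groups scaled. MGA had the lowest ratio, -3.56 (14.7 times lower), past 10-fold lower as 4.98% of rows were (0 members and 4.38% of rows were past 10-fold higher), and 3.62% of rows had a lower one.

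The count of lower members depended on the scaling and on the mock used. The part of control_IgG, the shallowest group, was not tested, and the scalings changed control_AGO as well. With the groups scaled, the lower members were 1 (MGA, -3.13 to -2.97) and the higher ones were 3 or 4 (MLX, MNT and MXD4 under each scaling, with MXD1 joining under 1), beside 27.2% to 29.6% of all rows lower and 38.8% to 41% higher. Set against miR143_IgG as the mock, an alternative chosen after the data had been seen, 3 of 9 members were at least 2-fold higher (MLX at a log2 ratio of 1.73, MXD4 at 1.49 and MNT) and 0 lower, beside 26.1% and 38.5% of 10407 rows. MGA was then at -0.78, MAX at -0.16, MXI1 at -0.87 and MXD3 at -0.26.

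In miR-143 cells, 3 of 9 members were at least 2-fold higher in AGO2 than in the mock, MLX, MXD4 and MNT, and 0 were lower. Among 10643 rows, 26.6% were higher and 33.5% lower. At 10-fold there were 0 members, beside 1.6% of rows higher and 3.67% lower. MXD4 had a log2 ratio of 1.72 (4.48 times higher; 12.5% of rows had a higher one) and MLX one of 1.43 (2.77 times higher; 17.5%). MNT was again listed at 0 in the mock. MXD3 was at 0.92, MYC at 0.30, MXD1 at 0.29, MXI1 at 0.23 and MAX at 0.15. MGA was at -0.04, and changed sign with the groups scaled (0.11 to 0.40), while MXD3 then passed 2-fold (1.07 to 1.37), so that 4 members were higher, beside 29% to 33.8% of all rows. The median of the members was 0.30, beside -0.22 for all rows. MLX and MXD4, each with 2 sites for miR-143-3p, had AGO2 above mock in control cells as well as in miR-143 cells. MIR143 was listed at 0 in control cells, but this row is not a measure of the mature microRNA. The study measured miR-143 by qPCR in K562-C/EBPα-ER cells. A part of miR-143 in these ratios was not tested.

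The split of all rows depended on the scaling. Of the rows past 2-fold, 56.7% to 60.1% were higher in control cells and 48.4% to 56.8% in miR-143 cells when the groups were scaled, whereas with the values as deposited the lower rows were the more numerous in both. The scalings moved the median of all rows by 0.39 to 0.55 in control cells and by 0.14 to 0.41 in miR-143 cells on the log2 scale. Beside these shifts, MLX stayed above 2-fold in both cells (2.48 to 2.67 and 1.59 to 1.92). MXD4, within 2-fold in control cells as deposited, was past it with the groups scaled (1.24 to 1.41, and 1.86 to 2.12 in miR-143 cells).

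**Figure D3:**
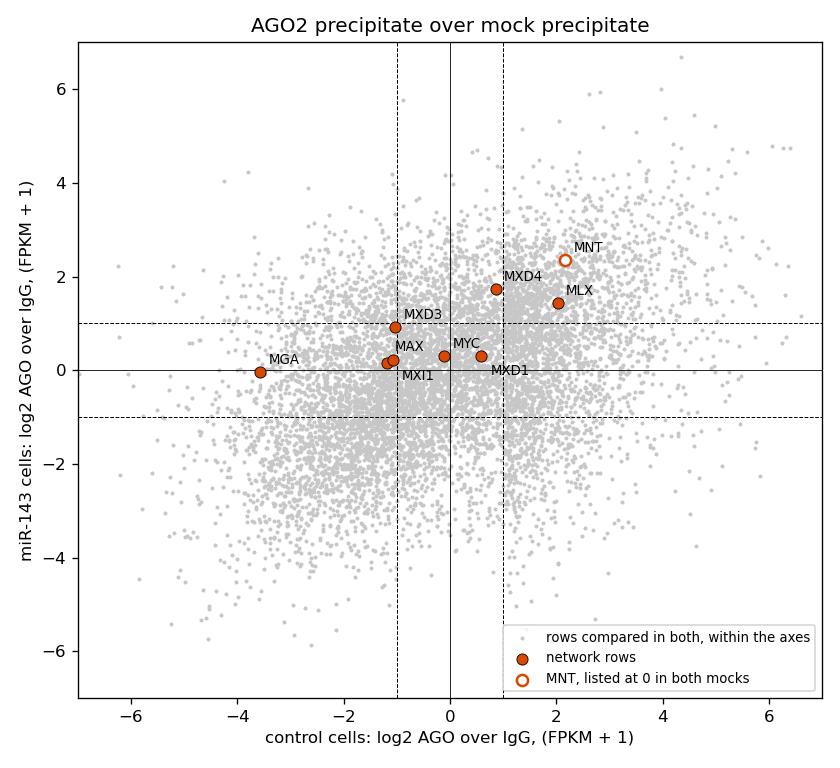
Log2 ratio of AGO2 over mock, on (FPKM + 1), in control cells (horizontal) and miR-143 cells (vertical), with grey points for the rows compared in both (those beyond 7 on either axis are not drawn), filled circles for members and dashed lines at 2-fold. MLX lies past 2-fold in both cells, MXD4 in miR-143 cells, and MAX, MXI1, MXD3 and MGA lie past it to the left; the open circle for MNT is set by the pseudocount, since its mock values are 0.

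The IgG-corrected ratio divides AGO2 over mock in miR-143 cells by that in control cells. It shares control_IgG with the IgG pair and with the ratio in control cells, so that the values below are not separate support for them. At least 2-fold higher were 4 of 9 members (MGA 3.52, MXD3 1.95, MAX 1.34 and MXI1 1.29 on the log2 scale) and 0 lower, beside 29% and 33.5% of 11914 rows. MGA alone was past 10-fold higher (4.29% of rows), and 0 members were past 10-fold lower (6.05%). The others were MXD4 at 0.87, MYC at 0.41, MXD1 at -0.28 and MLX at -0.60, and MNT, with both mocks at 0, is given no ratio. Scaled to the same median, 2 members were higher (MGA and MXD3) and 1 lower (MLX, -1.08), beside 23.4% and 38.5% of rows, and MYC ranged from -0.09 to 0.39 over the scalings, with a change of sign. For MGA the AGO values were 3.73 and 6.88 FPKM and the mock values 54.9 and 7.10, so that the high ratio went with the 1 value of control_IgG.

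Quotients of members within a group do not depend on how the group was scaled. The 9 rows summed to 331 FPKM in the mock and 283 in AGO2 of control cells, and to 179 FPKM in the mock and 264 in AGO2 of miR-143 cells. MYC made up 48.1%, 52.2%, 54.7% and 45.8% of these sums in the same order. MAX made up 23.4%, 11.8%, 20.97% and 15.9%, with both mock shares above both AGO2 shares. MLX made up 5.41%, 26.9%, 12.4% and 23.3%, with the opposite order. MGA made up 16.6% in control_IgG and 1.32% to 3.95% in the other groups.

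MYC over MAX was 2.05 in the mock and 4.40 in AGO2 of control cells, and 2.61 in the mock and 2.89 in AGO2 of miR-143 cells, with control_AGO the highest. MLX over MAX was 0.231 in the mock and 2.27 in AGO2 of control cells, and 0.590 in the mock and 1.47 in AGO2 of miR-143 cells. MLX thus exceeded MAX in both AGO2 precipitates and lay below it in both mocks. MLX over MYC was 0.112, 0.515, 0.227 and 0.508, with AGO2 values close to each other. The sum of MXD1, MXI1, MXD3, MXD4 and MNT, joined rows included, was 21.5 FPKM in the mock and 22.1 in AGO2 of control cells, and 14.4 FPKM in the mock and 32.8 in AGO2 of miR-143 cells. MYC over this sum was 7.40, 6.67, 6.80 and 3.69, and miR143_AGO was the lowest. With MGA added to the sum the quotient was 2.08, 5.71, 4.56 and 3.05, and control_IgG was the lowest. The sum without MGA over MAX was 0.278, 0.659, 0.383 and 0.782, higher in both AGO2 precipitates than in both mocks.

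**Figure D4:**
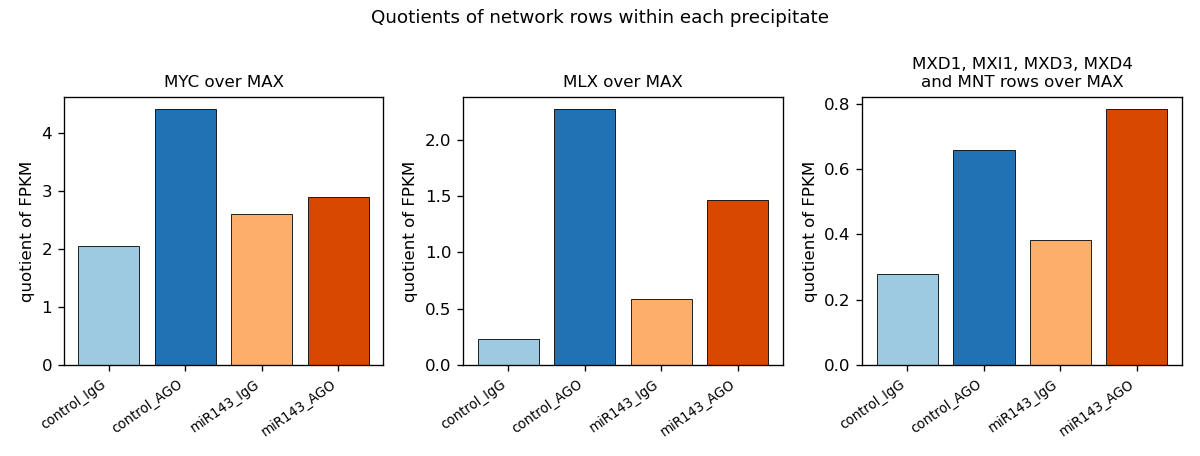
Quotients of FPKM within each group (bars from 0) for MYC over MAX, MLX over MAX, and the summed MXD1, MXI1, MXD3, MXD4 and MNT rows over MAX. MLX over MAX is 2.27 and 1.47 in the AGO2 precipitates and 0.231 and 0.590 in the mocks.

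In the lists that follow, the highest and the lowest gene are taken among rows of 1 name with at least 1 FPKM in both groups compared, so that rows outside this limit can lie further out. The counts of each list stand beside these shares of all rows. In AGO2 over mock 34.5% were at least 2-fold higher and 36.2% lower in control cells, and 26.6% and 33.5% in miR-143 cells. With the groups scaled they were 38.8% to 41% and 27.2% to 29.6%, and 29% to 33.8% and 25.8% to 30.9%. In the AGO pair 17.7% were higher and 14.1% lower. The other members of the MYC and MLX families, listed with USF1, USF2 and TFAP4, which also bind E-boxes, differed widely. Of 6 compared, 4 were at least 2-fold higher in AGO2 than in the mock and 1 lower in control cells, and 3 higher and 2 lower in miR-143 cells (3 and 1 with the groups scaled). MYCN, the neuronal paralog of MYC, was listed at 0 in all groups. MYCL, another MYC paralog, was at 0.770 FPKM in the mock and 30.8 in AGO2 of control cells, and at 0.347 FPKM in the mock and 28.5 in AGO2 of miR-143 cells. Both AGO2 values of MYCL were far above both mock values (log2 4.17 in control and 4.46 in miR-143 cells, past 10-fold), whereas MYC was close to even. The mock values of MYCL lay below 1 FPKM, so that the size of its ratios depends on the pseudocount. MLXIP, the glucose-responsive partner of MLX, had 13.3 FPKM in the mock and 31.3 in AGO2 of control cells and 7.97 and 31.8 FPKM in those of miR-143 cells, with log2 ratios of AGO2 over mock of 1.17 and 1.87. MLX and MLXIP thus both lay past 2-fold in AGO2 in both cells. MLXIPL, the other partner, was listed at 0 in both mocks, with 38.7 FPKM in AGO2 of control cells and 1.80 in that of miR-143 cells. It was the 1 gene of these 7 past 10-fold in the AGO pair, at -3.82 on the log2 scale. USF1 and USF2, which bind E-boxes as dimers of their own, went in opposite directions in control cells, USF1 from 47.9 FPKM in the mock to 5.67 in AGO2 and USF2 from 12.7 to 88.3. In miR-143 cells both were lower in AGO2, USF1 from 35.9 to 7.90 FPKM and USF2 from 100.4 to 49.5.

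The corepressor that MXD proteins and MNT recruit had medians of AGO2 over mock below those of all rows. Of 13 SIN3 and HDAC complex rows, 11 were compared in miR-143 cells, and 7 were at least 2-fold lower in AGO2 and 0 higher, with a median of -1.63 beside -0.22 for all rows. In control cells 7 of 12 were lower and 4 higher (median -1.04 beside -0.19), and 4 lower and 5 higher when the groups were scaled. RBBP7, a histone chaperone of the complex, was the lowest in control cells (from 53.3 FPKM in the mock to 2.45 in AGO2). HDAC1, the deacetylase, was the highest there within the limit of 1 FPKM (from 2.33 to 8.91 FPKM) and the lowest within it in miR-143 cells (from 47.4 to 6.35 FPKM). HDAC2 was at 31.4 FPKM in miR143_IgG and listed at 0 in miR143_AGO. SIN3A, the scaffold, was at 8.98 FPKM in the mock and 3.93 in AGO2 of control cells, and at 8.52 FPKM in the mock and 4.98 in AGO2 of miR-143 cells, and its paralog SIN3B at 0.646, 4.66, 12.1 and 7.72. In the AGO pair 3 were higher (SAP18 the highest at 1.66) and 3 lower (BRMS1 the lowest at -1.52), with a median of 0.05.

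Coactivators of MYC were compared in 17 of 18 rows. In the AGO pair 2 were at least 2-fold higher and 0 lower (median 0.33, beside 0.17 for all rows). KAT5, the TIP60 acetyltransferase, was the highest (5.23 FPKM in control_AGO and 13.5 in miR143_AGO), and EP400, a chromatin remodeller of the same complex, the lowest (12.4 and 6.13 FPKM). In control cells 10 were lower in AGO2 and 2 higher, with the joined row of BPTF, a remodeller subunit, past 10-fold (from 10.4 to 0.0811 FPKM). In the same cells 7 were lower and 4 higher with the groups scaled. In miR-143 cells 5 were higher and 3 lower (5 to 7 and 2 to 3 with the groups scaled), with ZBTB17 (MIZ1, the partner through which MYC represses) from 1.34 to 5.03 FPKM and DOT1L, a histone methyltransferase, from 50.9 to 5.54.

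Regulators of MYC protein turnover were compared in 10 of 11 rows, and 0 were higher and 1 lower in the AGO pair (median 0.42). The lower one was FBXW7, the ubiquitin ligase component that marks MYC for degradation, at 1.69 FPKM in the mock and 6.37 in AGO2 of control cells, and at 9.19 FPKM in the mock and 2.18 in AGO2 of miR-143 cells. FBXW7 was thus higher in AGO2 than in the mock in control cells (log2 1.45) and lower in miR-143 cells (-1.68). STUB1, a chaperone-linked ubiquitin ligase, was the highest in the AGO pair, at 0.97, and the lowest in control cells, from 33.0 to 6.94 FPKM. PIM1, a kinase that stabilises MYC, was the highest in miR-143 cells, from 73.3 to 226 FPKM. Over AGO2 and mock, 2 rows were higher and 1 lower in each cell (medians 0.16 and 0.58), and with the groups scaled 4 were higher in control cells and 3 to 6 in miR-143 cells, with 1 lower in each.

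The Polycomb complex that contains MGA gave 1 row higher and 1 lower of 9 in the AGO pair (median 0.37). TFDP1, the partner of E2F proteins, was the highest among rows with at least 1 FPKM in both groups (3.92 and 8.64 FPKM), and RING1, a ubiquitin ligase, the lowest (6.46 and 4.54). In control cells 3 of 7 were higher and 3 lower in AGO2. RING1 was the highest there (1.58 to 6.46 FPKM), CBX3, which reads methylated histones, the lowest with 1 FPKM in both (15.2 to 1.57), and its paralog CBX1 was past 10-fold (28.1 to 0.433). In miR-143 cells 2 of 10 were higher and 4 lower (median -0.64), with CBX1 even (3.95 and 3.99 FPKM) and TFDP1 the lowest (31.9 to 8.64).

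Proteins that bind MYC mRNA were, on the median, lower in AGO2 than in the mock, at -0.83 in control and -1.38 in miR-143 cells. In miR-143 cells 7 of 10 were at least 2-fold lower and 0 higher (4 to 6 lower and 1 higher with the groups scaled), with CNBP, a nucleic acid binding protein, from 32.8 to 4.94 FPKM. IGF2BP1, which stabilises MYC mRNA, was the highest there (7.17 to 14.0 FPKM). In control cells 4 were lower and 1 higher, and the paralogs IGF2BP2 (18.5 to 2.55 FPKM) and IGF2BP3 (listed at 0 in the mock, 9.20 FPKM in AGO2) differed in direction. DDX3X, an RNA helicase, was the highest within the limit in control cells (7.39 to 5.58 FPKM), and HNRNPD (AUF1, a decay factor) was past 10-fold (30.4 to 0.878). In the AGO pair 0 were higher and 1 lower, PTBP1, a splicing repressor, from 68.7 to 29.5 FPKM, with IGF2BP1 the highest at 0.94.

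The 37 MYC target genes lay in 36 rows, all of them compared for AGO2 over mock, and had medians below those of all rows. In control cells 19 were at least 2-fold lower and 6 higher, beside 36.2% and 34.5% of all rows. In miR-143 cells 19 were lower and 3 higher, beside 33.5% and 26.6%. The medians were -1.17 and -1.25, beside -0.19 and -0.22 for all rows. With the groups scaled, the lower targets were 13 to 14 and 15 to 19, beside 27.2% to 29.6% and 25.8% to 30.9% of all rows. The higher ones were then 8 to 9 and 3 to 6, beside 38.8% to 41% and 29% to 33.8%. NCL (nucleolin) was at 54.99 FPKM in the mock and 4.58 in AGO2 of control cells, and at 35.2 FPKM in the mock and 6.37 in AGO2 of miR-143 cells. With the 4 groups in this order, NPM1 (nucleophosmin) stood at 258, 113, 381 and 158 FPKM, and ODC1, the first enzyme of polyamine synthesis, at 97.2, 25.6, 109 and 45.2. All 3 were lower in both AGO2 groups than in both mocks. PRMT5, an arginine methyltransferase, was the lowest row of 1 name in control cells (178 to 14.1 FPKM) and WDR43, a ribosome biogenesis factor, in miR-143 cells (49.95 to 5.34).

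E2F1, a cell cycle transcription factor, was the highest of the targets in control cells. It stood at 1.03 FPKM in the mock and 34.0 in AGO2 of control cells, and at 0.793 FPKM in the mock and 26.1 in AGO2 of miR-143 cells, past 10-fold higher in AGO2 in both cells. With mock values near 1 FPKM, the size of these ratios depends on the pseudocount. RRP9, a nucleolar protein, was listed at 0 in the mock of control cells and at 14.5 FPKM in their AGO2, and RRP12, of the same process, was the highest with 1 FPKM in both groups in miR-143 cells (1.71 to 7.73). The joined row of HSPE1, HSPE1-MOB4 and MOB4 went from 23.6 to 0.847 FPKM in control cells. In the AGO pair 3 of 35 targets were higher and 4 lower, with a median of 0.29. MTHFD1, of folate metabolism, was the highest (5.67 and 18.1 FPKM) and TERT, the telomerase subunit, the lowest (7.79 and 1.71 FPKM).

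Housekeeping genes gave a reference for these lists. Their median AGO2 over mock was -0.81 in control and -1.27 in miR-143 cells, with 5 and 6 of 11 at least 2-fold lower and 1 and 1 higher, and -0.03 in the AGO pair with 2 higher and 0 lower. GAPDH was at 566 FPKM in the mock and 467 in AGO2 of control cells, and at 584 FPKM in the mock and 522 in AGO2 of miR-143 cells. TUBB was the highest in AGO2 over mock in both cells and YWHAZ the lowest with at least 1 FPKM in both groups, while TBP was past 10-fold lower in control cells (23.2 to 0.748 FPKM), and SDHA was the highest in the AGO pair (6.90 and 41.2 FPKM). MYC over GAPDH was 0.281, 0.316, 0.168 and 0.232, with both control values above both miR-143 values. This order depended on the gene used as divisor. With ACTB (262, 324, 316 and 255 FPKM in the same order of groups) the quotient was higher in miR143_AGO than in control_AGO. MAPK7, the kinase ERK5 that acts upstream of MYC, was at 6.69 FPKM in the mock and 36.9 in AGO2 of control cells, and at 0.0988 FPKM in the mock and 14.2 in AGO2 of miR-143 cells. It was higher in AGO2 than in the mock in both cells (log2 2.30 and 3.79). In miR-143 cells it was lower in both precipitates (-1.32 in AGO2 and -2.81 in the mock), whereas its IgG-corrected ratio was higher, at 1.48. The values 3.79, -2.81 and 1.48 all include the mock value of 0.0988 FPKM, which lies below 1 FPKM.

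**Figure D5:**
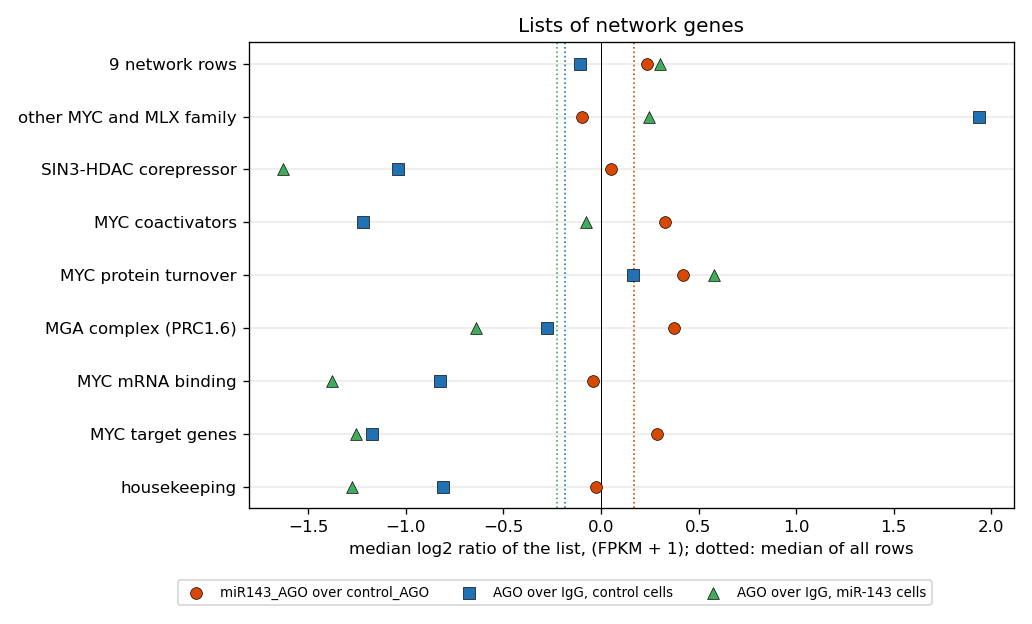
Median log2 ratio, on (FPKM + 1), of the 9 members and of each list in the AGO pair (circles) and for AGO2 over mock in control cells (squares) and miR-143 cells (triangles), with the medians of all rows dotted in the same colours. MYC targets, the SIN3-HDAC complex and housekeeping genes lie below the dotted lines for AGO2 over mock in both cells. The members lie close to the line in control cells (-0.11 beside -0.19) and above it in miR-143 cells (0.30 beside -0.22).

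The rows whose pattern was most like that of MYC were ranked among coding rows by the Euclidean distance of log2(FPKM + 1) over the 4 groups. They were IMPDH2, the rate-limiting enzyme of guanine nucleotide synthesis (distance 0.34), the histone gene HIST1H2BH (0.44), the actin-binding profilin PFN1 (0.60), the phosphatase subunit PPP1CA (0.65) and the intermediate filament gene VIM (0.68). IMPDH2 was at 137 FPKM in the mock and 122 in AGO2 of control cells, and at 95.9 FPKM in the mock and 124 in AGO2 of miR-143 cells, the closest to the values of MYC. With 4 values per gene, likeness mostly reflects a similar level.

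The members lie on 8 chromosomes (GENCODE 29, GRCh38). MYC lies at chr8:127735434-127741434 on the plus strand, MAX at chr14:65006174-65102695 (minus), MXI1 at chr10:110207605-110287365 (plus) and MXD4 at chr4:2247432-2262294 (minus). MNT at chr17:2384060-2401118 (minus) and MLX at chr17:42567068-42573239 (plus) share a chromosome. MGA lies at chr15:41621224-41773081 (plus), MXD1 at chr2:69897688-69942945 (plus) and MXD3 at chr5:177301461-177312757 (minus). Since MYC and its antagonists bind the E-box, the promoters in RefSeq (GRCh38.p14, 250 bases before to 50 after a start) were searched for CACGTG, which reads the same on both strands. It was found in 3 of 13 promoters of 8 members, 1 each of MXD4, MNT and MLX, at 238, 193 and 50 bases before the start, and in 7.26% of 35116 promoters. A match describes the sequence and shows no binding.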

How the data were processed

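RNA immunoprecipitation sequencing with anti-AGO2 or unspecific IgG was analysed for 12 samples in 4 groups of 3, grouped by their titles. The authors processed the reads with TopHat and Cufflinks on hg38 (versions and annotation not given in the sources used here) and deposited 1 average FPKM per gene row and group. Library preparation is described differently in the labels (rRNA removal, random priming) and in the methods (a TruSeq kit). Replicate values were not analysed here, so that no test, SD or p-value is given, and the design's form for pooled values was used. Since FPKM is relative to the whole library, very abundant RNAs depress the values of the remaining genes.

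Ratios were log2 of (FPKM + 1), over rows with at least 1 FPKM in 1 of the groups compared, and were counted from 2-fold. Percentages of all rows past the same fold are given as background. Where the name of a member or list gene stood in several rows, the row with the highest FPKM sum over the 4 groups was taken. The ratio and count steps were tested on simulated data. Depth was read from the low edge. Gene models, 3′ UTRs and sites came from GENCODE 29 by symbol, which may not be the authors' annotation. MicroRNAs (8 families, all matched) and promoters (8 of 9 members matched) came from RefSeq. Python 3.11.15, pandas 2.3.3, numpy 2.4.6 and matplotlib 3.10.9 were used.

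The members and lists were chosen with earlier results of these data known. Named were all members, the highest and lowest gene of each other list in the AGO pair and in AGO2 over mock among rows of 1 name with at least 1 FPKM in both groups, those past 10-fold, the 5 rows most like MYC, and MYCN, MYCL, MLXIP, MLXIPL, SIN3A, SIN3B, FBXW7, NCL, NPM1, ODC1, MAPK7 and GAPDH. Some genes that this rule names are not reported here. Alternatives were pseudocounts of 0.1 and 0.01, no filter or a mean of at least 5 FPKM, 3 scalings (same median, upper quartile or sum over coding rows), a threshold of 10-fold and joined rows left out. The other mock, the 5th lowest product for depth and scaled member levels were added after seeing the data. Strand of the libraries is not stated, so that reads of a gene and an overlapping one cannot be told apart.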

Additional observations from a re-analysis of the deposited data

Results flagged for a closer look

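For MAX, MXI1 and MXD3, the members whose ratios also differed by at least 2-fold between the cells, AGO2 over mock lay on opposite sides of 0 in the control and the miR-143 populations, with 1 value per group, and this difference was not tested. For MAX the log2 ratio of control cells was -1.19 and that of miR-143 cells 0.15, a difference of 1.34. For MXI1 it was -1.06 and 0.23, a difference of 1.29. For MXD3, joined with RAB24, it was -1.02 and 0.92, a difference of 1.95. In each of the 3 the mock value of control cells was higher than that of miR-143 cells (77.4 and 37.6 FPKM for MAX, 5.02 and 4.27 for MXI1, 9.83 and 5.36 for MXD3), and with miR143_IgG as the mock of control cells the ratios in control cells were -0.16, -0.87 and -0.26. The part of the depth of control_IgG in these differences was not tested. MYC also lay on both sides of 0 (-0.11 and 0.30), with a difference under 2-fold. Which members are flagged depended on the scaling. With the groups scaled to the same median, the differences of MAX (0.85) and MXI1 (0.93) were under 2-fold, and that of MXD3 was 1.52. MGA lay on opposite sides of 0 under each scaling (-3.13 to -2.97 in control cells and 0.11 to 0.40 in miR-143 cells).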

How the results depend on the processing

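No paired analysis was possible because each table gives a single averaged column without replicate numbers, and the planned fits with 1 replicate left out could not be run either. Of 302 member ratios recomputed under the alternatives, 282 stayed within 0.5 log2 units of the reported value, 20 moved further and 0 of those past 2-fold changed sign. Of the 20, 11 came with a scaling, 5 with the other mock and 4 with a smaller pseudocount. Past 2-fold in the AGO pair were 2 members as reported and 1 with a mean of at least 5 FPKM, with the same median or without joined rows. In the IgG pair 2 members became 1 under each scaling. For AGO2 over mock in control cells the 6 members became 3 with miR143_IgG as the mock. At 10-fold, 0 members were left in both pairs and for AGO2 over mock of miR-143 cells, and 1 each for that of control cells and the IgG-corrected ratio. For the lists in the AGO pair, the SIN3 and HDAC genes went from 6 to 3, coactivators from 2 to 1, turnover genes from 1 to 0, the MGA complex from 2 to 0 and housekeeping genes from 2 to 1 with a mean of at least 5 FPKM, since fewer genes were compared. With either smaller pseudocount coactivators were 6, turnover genes 3 and the MGA complex 4, and mRNA-binding proteins 2 and 4. With the same upper quartile or coding sum, coactivators were 5 and turnover genes 2. mRNA-binding proteins were 2 with the same median or upper quartile, and the other MYC and MLX family genes 2 with the same median. At 10-fold, 0 genes of the SIN3, coactivator, turnover, MGA complex, mRNA-binding, target and housekeeping lists were left. Where no construction of the alternative shows it, the cause was not tested. Depth limits the low values of control_IgG most.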
